A study of Mus musculus with 6 samples.

Results

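The 34 genes described here encode the enzymes and transporters of glycolysis and a group of transcripts known to rise in low oxygen. Their probe sets were taken from the deposited table wherever the platform annotation named a single gene and that gene was on the list. The rule itself uses no measured value, but the list was drawn up with earlier results of these data known. Of the 34 genes, 31 had a probe set of their own, with 72 probe sets among the 45101 in the table, in which 18194 genes had a probe set of their own. Gpi1 and Eno1 were unnamed in the annotation used, Bnip3l was named only together with a pseudogene, and Gapdh was named alone only by 3 control probe sets, which were not tested. Of the other 69 probe sets, 65 passed the filter on dim probe sets and represented 30 genes. The 4 that did not pass, 1 each of Slc16a1, Aldoc, Ldhb and Hif1a, read at or below the bacterial control probe sets on every array.

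The samples were megakaryocytes, the cells that release platelets, grown in culture from progenitors of mouse fetal liver at embryonic day 13.5 and collected on a gradient of bovine serum albumin. There were 3 samples labelled as a Gata-1 knock down and 3 as wild type, lettered A to C in each group, with 1 array for each. The labels name no strain, allele, promoter or oxygen level. Separate cultures or animals are not stated either, so the p-values rest on the spread among 3 samples a group, and that spread may be technical.

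Glycolysis breaks glucose down to pyruvate in the cytosol and yields ATP without oxygen, and lactate dehydrogenase turns the pyruvate into lactate. Many genes of the pathway are also targets of hypoxia-inducible factor (HIF), a pair of transcription factor subunits whose alpha subunit is hydroxylated by prolyl hydroxylases and then destroyed when oxygen is present. When oxygen is short the alpha subunit persists and binds a short motif, the hypoxia response element, near its targets. Platelets and megakaryocytes take up glucose and make lactate at a high rate, and GATA1 is a transcription factor that megakaryocytes and red cell precursors require to mature.

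Gata1 itself read 153.5, 143.3 and 194.7 in knockdown A, B and C and 8723.7, 8246.5 and 8495.6 in wild type A, B and C, a log2 fold change of -5.52 ± 0.12 (SE). All 8 megakaryocyte markers that had a probe set, of 10 listed, lay above the bacterial controls on all 6 arrays, and 6 of the 8 were lower in knockdown. The brightest bacterial control probe set read 132 on knockdown B and 60.7 to 82.2 elsewhere. Markers of other blood cells differed between the groups. The summed signals of 9 macrophage markers were 6944 to 7115 on knockdown and 18396 to 19109 on wild-type arrays, with 8 of 8 tested markers lower and 8 of the 9 above the controls on every array. For 8 neutrophil markers the sums were 2709 to 2809 and 10507 to 10896, with 7 of 8 tested lower and 4 still above the controls on all knockdown arrays. For 8 mast cell markers they were 1235 to 1396 and 4263 to 4919, with 7 of 8 tested lower and 2 above the controls on all knockdown arrays. For the 5 red cell markers with a probe set the sums were 2231 to 2513 and 10790 to 11142, with 2 of 5 tested lower and 1 higher. Most of that difference was in 1 gene, the embryonic globin Hbb-y, with a mean of 1126 in knockdown and 9748 in wild type. The sums leave out probe sets that name several genes, 3 for the globin Hba-a1 and 1 for the globin Hbb-b1. Hbb-b1 had no other, and Hba-a1 was read from 1 dim probe set, at means of 87.7 in knockdown and 98.4 in wild type. For 6 hepatocyte markers the sums were 447 to 679 and 1089 to 1246, with 1 of 3 tested lower, Afp, at means of 370 and 913. No marker had a signal of 0. In a bulk sample, fewer cells of a type and less RNA per cell cannot be told apart, and the part of these cells in the changes described below was not tested.

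As a map of where the hypoxia-inducible factor could bind, the 250 bases before the annotated start are shown for the members with a single start in the RefSeq table of build GRCm38.p6 that changed by at least 1.5-fold, with Slc2a1 added for contrast after its value was seen. Capitals mark the core letters of the hypoxia response element, ACGTG or GCGTG, on either strand, so that CACGT and CACGC are the same words read from the other strand.
Bnip3 (higher in knockdown; chr7:138909507-138909756, minus strand): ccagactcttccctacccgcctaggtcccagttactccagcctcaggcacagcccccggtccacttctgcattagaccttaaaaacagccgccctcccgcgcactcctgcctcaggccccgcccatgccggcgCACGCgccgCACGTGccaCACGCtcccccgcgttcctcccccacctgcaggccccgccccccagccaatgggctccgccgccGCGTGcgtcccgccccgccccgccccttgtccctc
Ankrd37 (higher; chr8:45999851-46000100, minus strand): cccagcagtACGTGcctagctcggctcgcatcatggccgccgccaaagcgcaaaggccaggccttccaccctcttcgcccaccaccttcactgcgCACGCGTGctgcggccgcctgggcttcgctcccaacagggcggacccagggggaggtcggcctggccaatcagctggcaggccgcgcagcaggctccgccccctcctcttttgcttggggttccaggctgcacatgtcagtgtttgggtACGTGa
Egln3 (higher; chr12:54203875-54204124, minus strand): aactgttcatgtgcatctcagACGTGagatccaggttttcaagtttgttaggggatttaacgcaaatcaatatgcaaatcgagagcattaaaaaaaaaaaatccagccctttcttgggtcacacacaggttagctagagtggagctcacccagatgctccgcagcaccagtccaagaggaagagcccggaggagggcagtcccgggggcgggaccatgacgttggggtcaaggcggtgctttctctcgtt
Ero1a (higher; chr14:45318573-45318822, minus strand): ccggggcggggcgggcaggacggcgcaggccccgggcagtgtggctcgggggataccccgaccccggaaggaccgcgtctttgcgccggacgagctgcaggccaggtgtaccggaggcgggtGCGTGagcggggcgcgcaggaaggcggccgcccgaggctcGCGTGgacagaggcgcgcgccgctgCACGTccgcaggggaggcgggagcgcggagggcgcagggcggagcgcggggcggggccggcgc
P4ha1 (higher; chr10:59323046-59323295, plus strand): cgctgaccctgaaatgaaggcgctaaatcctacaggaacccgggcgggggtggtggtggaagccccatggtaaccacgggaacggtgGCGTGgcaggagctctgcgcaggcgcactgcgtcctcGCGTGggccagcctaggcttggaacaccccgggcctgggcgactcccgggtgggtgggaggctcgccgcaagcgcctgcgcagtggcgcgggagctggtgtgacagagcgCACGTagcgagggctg
Pfkfb4 (lower; chr9:108991652-108991901, plus strand): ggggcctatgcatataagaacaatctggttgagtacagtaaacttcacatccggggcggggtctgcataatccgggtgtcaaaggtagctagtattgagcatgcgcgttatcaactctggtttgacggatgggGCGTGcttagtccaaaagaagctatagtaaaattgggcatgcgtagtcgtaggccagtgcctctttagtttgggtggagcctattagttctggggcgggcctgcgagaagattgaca
Slc2a1 (lower; chr4:119108495-119108744, plus strand): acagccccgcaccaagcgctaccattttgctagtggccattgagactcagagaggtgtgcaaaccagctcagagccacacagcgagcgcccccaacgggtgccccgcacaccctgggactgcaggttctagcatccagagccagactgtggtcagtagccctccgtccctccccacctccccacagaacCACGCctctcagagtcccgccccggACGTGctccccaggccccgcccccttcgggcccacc

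The core letters were frequent before the members' starts, whichever way the transcript moved. They were present in 37 of 44 windows of 31 member genes (84.1%), against 38.6% of all 32851 windows in the table, and the members' windows were also richer in G and C, with a median of 62.8% against 52.4%. The share was not adjusted for that difference. Windows of the same gene can overlap, as for Eno1, Aldoa and Pfkm, so that the same match can count more than once. Among the members with a window, 11 of 12 that were called higher, 6 of 6 called lower and 10 of 10 not called had the letters in at least 1 window. Ndrg1, which had the largest fall, had no window, and neither had Slc2a3 or Bnip3l. These are counts of genes, some with several windows, and no such count was made over all genes. The GATA motif (AGATAA or TGATAA, either strand) was found in 18.2% of the members' windows and 16.6% of all windows, and the E-box CACGTG, which contains ACGTG, in 13.6% and 6.0%. A match is only a match of letters in this window and shows no binding.

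Across the list, 12 genes were higher in knockdown, 7 were lower and 11 did not pass the test, each gene read from its brightest probe set, with limma on quantile-normalized log2(signal + 32) and a Benjamini-Hochberg adjusted p under 0.05 over all 31526 probe sets tested. Of all 14230 genes tested, 35.5% were called, 18.3% higher and 17.1% lower, so 19 of 30 members called is a larger share than among all genes. The 12 higher members exceed the background by more than the 7 lower ones. The list was drawn up with earlier results of these data known, and the shares were not matched for brightness. These excesses are therefore a description and were not tested. The median log2 fold change of the members was 0.20, and that of all genes 0.03. Arrays of the groups did not overlap for 20 of the 30 members and for 47.8% of all genes. Called changes of at least 1.5-fold were made by 10 members, 7 higher and 3 lower, and by 17.6% of all genes. Over probe sets, 29 of the 65 were higher and 15 lower, with 30.4% of all probe sets called. The list did not move one way: the called rises of at least 1.5-fold were those of Bnip3, Aldoc, Ankrd37, Pdk1, Egln3, Ero1a and P4ha1, and the falls of that size those of Ndrg1, Pfkfb4 and Pfkfb3.

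**Figure D1:**
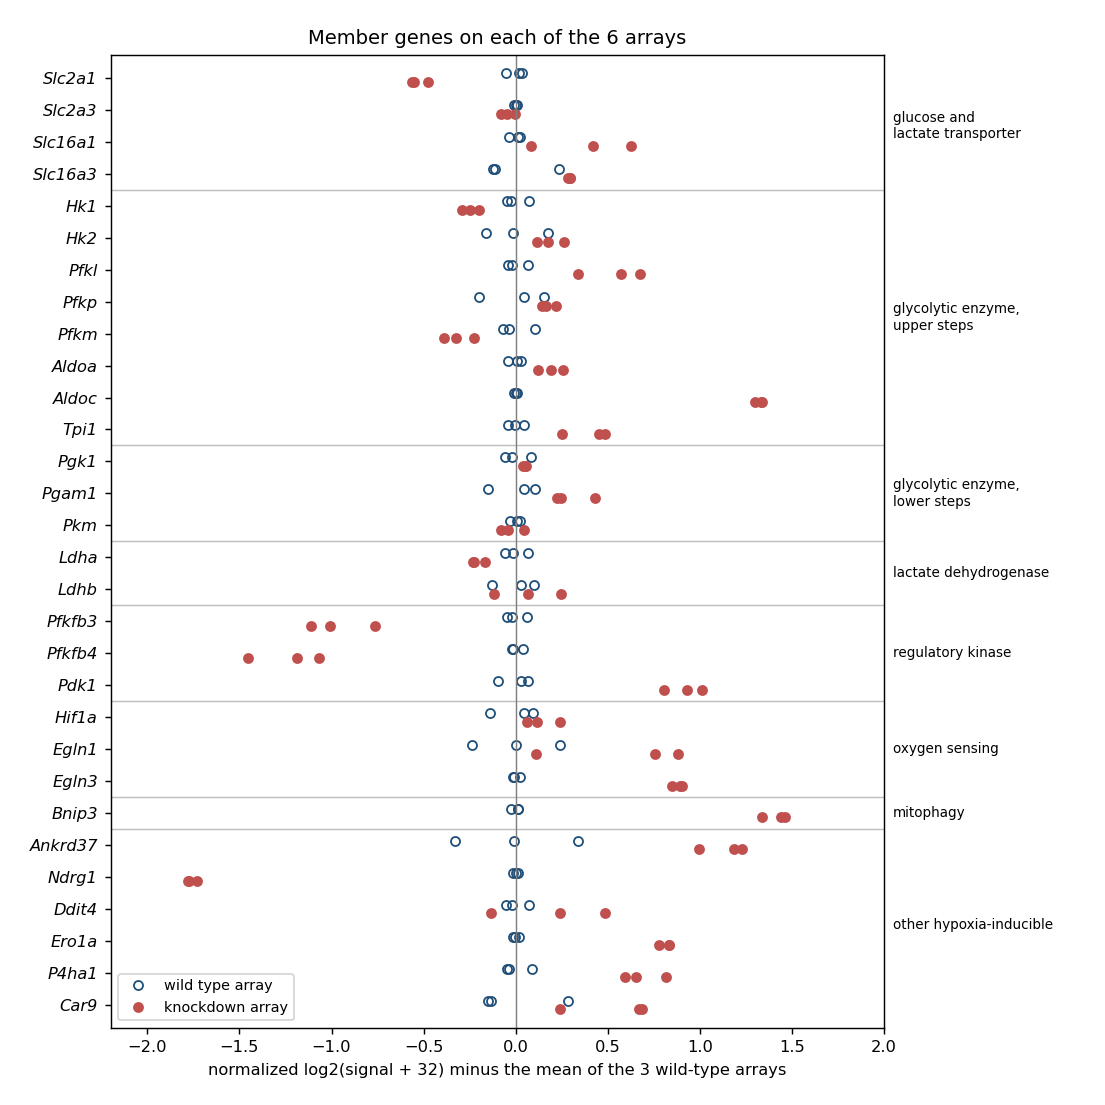
Normalized log2(signal + 32) of the 30 tested member genes on each array, as the difference from the mean of the 3 wild-type arrays (x axis), with genes grouped by role (y axis). Filled points are knockdown and open points wild-type arrays. Bnip3 and Aldoc lie farthest to the right and Ndrg1 farthest to the left, and for 20 of the 30 genes the groups do not overlap.

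Glucose enters the cell through facilitative transporters of the Slc2 family. Slc2a1, which encodes the widely expressed glucose transporter GLUT1, read 2381.9, 2297.8 and 2479.7 in knockdown and 3672.3, 3473.8 and 3711.6 in wild type. Every knockdown array lay below every wild-type array, the log2 fold change was -0.53 ± 0.06 (SE), and the limma adjusted p was 6.07e-05. Its other 2 probe sets were also lower, at -0.79 and -0.48. With arrays centred on their medians in place of quantile normalization, the value of Slc2a1 was -0.79.

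Slc2a3 encodes GLUT3, the high-affinity transporter that platelets carry in quantity. Its brightest probe set read 17376.0, 21376.6 and 21169.3 in knockdown and 17628.9, 16259.0 and 17367.7 in wild type, up to 78.2% of the highest signal on the same array, and its log2 fold change was -0.043 ± 0.036 (limma adjusted p 0.437). Of its 4 probe sets, the dimmest was called higher, at 0.45 ± 0.05, and the other 3 were not called. The mean of the 4 was 0.15 and was called (limma adjusted p 0.00718), the reverse of the sign of the brightest. The part of a signal ceiling in this was not tested.

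Lactate leaves the cell with protons through the Slc16 transporters. Slc16a1, which carries lactate in either direction, read 2110.2, 1408.0 and 1806.4 in knockdown and 1326.0, 1375.8 and 1367.7 in wild type. The knockdown arrays were all higher but widely spread, at 0.38 ± 0.12 on the log2 scale (limma adjusted p 0.0364), and the call was lost under 9 of 17 alternatives, among them the removal of any 1 array other than knockdown B. Slc16a3, the lactate exporter of strongly glycolytic cells, had 0.29 ± 0.11 and did not pass (limma adjusted p 0.0671), and it passed without wild type C, at 0.41.

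In the early steps of the pathway, 4 of 8 tested genes were higher and 2 lower, beside 18.3% and 17.1% of all genes. Isoenzymes are given side by side. Hexokinase traps glucose by phosphorylation, and Hk1, its housekeeping form on mitochondria, read 5630.0, 5776.9 and 6101.9 in knockdown against 7736.2, 7135.7 and 7252.9 in wild type. It fell on every knockdown array, by 0.25 ± 0.05 on the log2 scale (limma adjusted p 0.00435), and its dimmer probe set by 0.56. The value of Hk1 was -0.53 with arrays centred on their medians and -0.40 as the mean of both probe sets, and the call was lost when the variance was moderated without an intensity trend. Hk2, the inducible form, had 0.18 ± 0.11 and was not called (limma adjusted p 0.246).

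Phosphofructokinase, the main control point of glycolysis, is a tetramer built from liver, muscle and platelet type subunits. The liver type subunit gene Pfkl read 2732.2, 3335.0 and 3196.9 in knockdown and 2165.7, 2128.8 and 2297.3 in wild type, or 0.53 ± 0.09 on the log2 scale (limma adjusted p 0.000916). A second probe set of Pfkl rose by 0.87 and the third, much dimmer, had 0.052 and was not called. The muscle type subunit gene Pfkm went the other way, from 1318.0, 1163.2 and 1184.2 in wild type to 950.3, 1033.9 and 981.8 in knockdown, or -0.31 ± 0.08 (limma adjusted p 0.0164), a call that was lost without wild type A or wild type C and without the intensity trend. The platelet type subunit gene Pfkp had 0.18 ± 0.09 and none of its 3 tested probe sets was called (limma adjusted p 0.191 for the brightest). With arrays centred on their medians the rise of Pfkl was 0.29 and the value of Pfkm -0.49.

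Aldolase splits the sugar bisphosphate. Aldoc, its brain type form and a known target of the hypoxia-inducible factor, read 1194.7, 1153.5 and 1138.4 in knockdown and 426.3, 436.7 and 425.3 in wild type. The arrays of each group lay close together and the groups far apart, with a log2 fold change of 1.32 ± 0.08, or 2.50-fold (limma adjusted p 1.39e-06). Aldoa, the muscle type form, which is bright on all arrays, read 15109.3, 20526.3 and 18389.2 in knockdown and 14131.7, 13123.2 and 14249.8 in wild type. All 5 of its probe sets were called higher, by 0.19 to 0.29. The value of the brightest was 0.37 as deposited, and it was not called under median centring or without the intensity trend. Tpi1, triosephosphate isomerase, rose by 0.40 ± 0.06 (limma adjusted p 0.000892), and its 3 probe sets were all called higher, by 0.25 to 0.40. Under median centring it had 0.14 and was not called.

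In the later steps, in which ATP is made, 1 of 3 tested genes was called at its brightest probe set, beside 35.5% of all genes. Pgam1, phosphoglycerate mutase, read 12436.3, 12267.2 and 11870.3 in knockdown and 10674.1, 8959.8 and 10445.3 in wild type, a rise of 0.30 ± 0.07 (limma adjusted p 0.0115) that was 0.090 and not called with arrays centred on their medians, and was not called without the intensity trend. Pgk1, phosphoglycerate kinase, had 0.048 ± 0.044 at its brightest probe set (limma adjusted p 0.472), up to 70.8% of the array maximum, while the other 2 probe sets were called higher, at 0.40 and 0.71. The mean of the 3 was called, at 0.38. Pkm, the pyruvate kinase of most tissues, read 11931.0, 15223.8 and 13660.7 in knockdown and 13483.1, 12534.3 and 13543.7 in wild type. These ranges overlapped, and the log2 fold change of Pkm was -0.024 ± 0.044 (limma adjusted p 0.743).

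Gapdh, glyceraldehyde phosphate dehydrogenase, could be read only from its 3 control probe sets, which target the 5' end, the middle and the 3' end of the transcript. The probe set at the 3' end read 14849.4, 19810.4 and 19192.5 in knockdown and 15495.4, 14062.9 and 14821.4 in wild type, so that knockdown A lay within the wild-type range and the other knockdown arrays above it. As deposited, the knockdown means of the 3 probe sets were 1.21 to 1.24 times those of wild type, and no test was made. After quantile normalization their mean log2 values, from the 5' to the 3' end, were 14.23, 14.12 and 14.00 in knockdown. In wild type they were 14.22, 14.12 and 13.96, and the normalized arrays of the groups overlapped for all 3.

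At the end of the pathway, Ldha, the lactate dehydrogenase subunit of glycolytic cells, read 17522.8, 22184.1 and 21706.1 in knockdown and 20590.5, 18351.9 and 18894.2 in wild type. These deposited signals overlapped and were higher on average in knockdown, 20471 ± 2564 against 19279 ± 1168 (SD, n = 3 each). After quantile normalization the log2 fold change was -0.21 ± 0.04 and was called lower (limma adjusted p 0.00404). The direction depended on the scaling: with the values as deposited it was 0.080 and not called (limma adjusted p 0.549), and the signals reached 88.9% of the array maximum. Ldhb, the subunit of oxidative tissues, had 0.064 ± 0.15 (limma adjusted p 0.795). A dimmer probe set of Ldhb was called lower and lay within background on all 3 knockdown arrays, so its change is at least 1.68-fold.

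The 3 regulatory kinases of the list were all called, where 35.5% of all genes were, and not in the same direction. Pdk1, which phosphorylates pyruvate dehydrogenase and so keeps pyruvate out of the mitochondrion, read 1302.1, 1376.2 and 1489.8 in knockdown and 725.8, 744.2 and 653.9 in wild type. It was higher on every knockdown array, by a log2 fold change of 0.92 ± 0.09 or 1.89-fold (limma adjusted p 2.74e-05). Of its 4 probe sets, 3 were called higher and the dimmest, at -0.037, was not. The mean of the 4 was 0.60.

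Pfkfb3 and Pfkfb4 encode bifunctional enzymes that make and remove the sugar phosphate that activates phosphofructokinase, and both are known to be induced by low oxygen. Pfkfb4 read 334.8, 283.4 and 361.1 in knockdown and 777.1, 751.0 and 743.2 in wild type. With no overlap, it fell by 1.24 ± 0.12 on the log2 scale, 2.36-fold (limma adjusted p 3.01e-05). Pfkfb3 read 550.5, 420.3 and 454.7 in knockdown and 951.7, 880.0 and 888.4 in wild type, and fell by 0.96 ± 0.11 (limma adjusted p 8.89e-05). Its other probe set, dim in both groups, had -0.11 and was not called, and the mean of the 2 probe sets was -0.54 and was called.

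**Figure D2:**
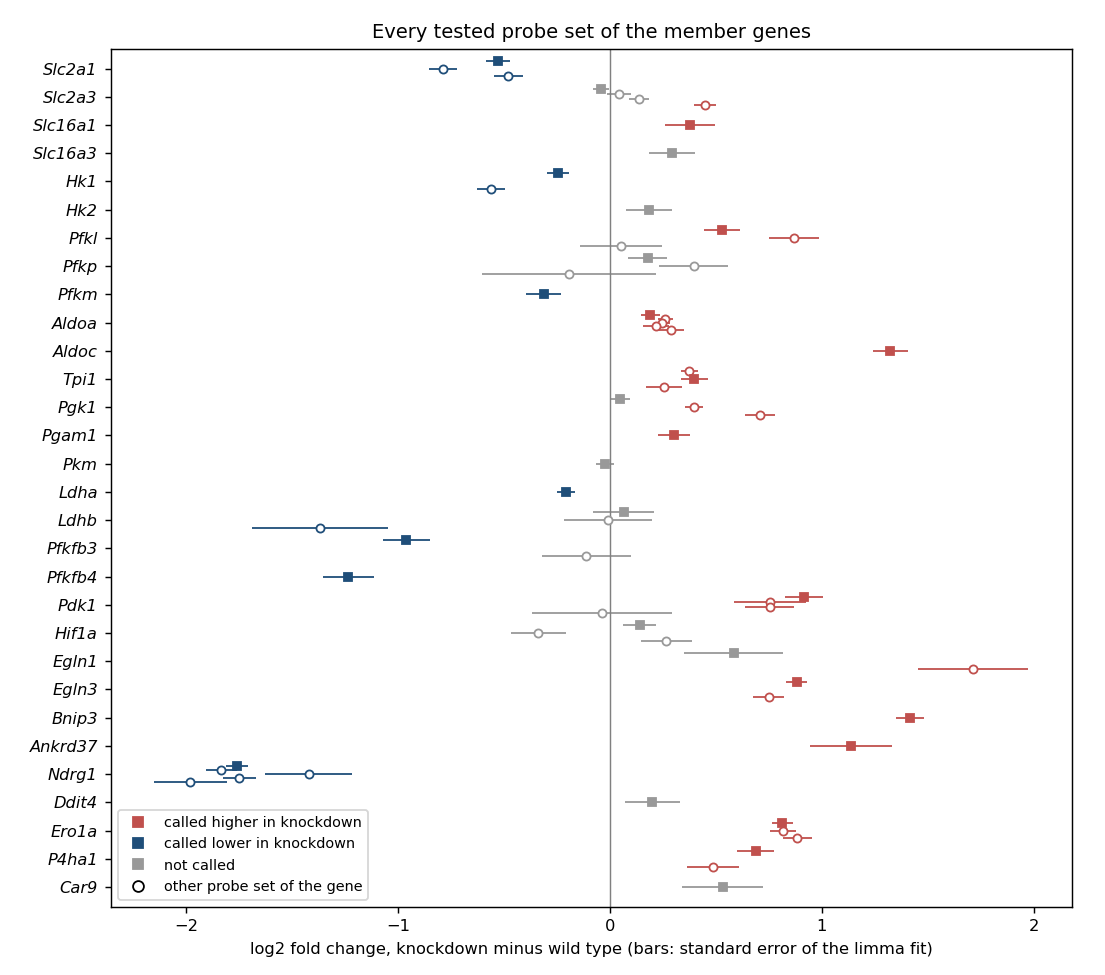
Log2 fold change, knockdown minus wild type (x axis), of all 65 tested probe sets of the member genes (y axis), with standard errors from the limma fit. Squares are the brightest probe set of each gene and open circles the others. All 5 probe sets of Ndrg1 lie at the far left between -1.98 and -1.42, while those of Slc2a3, Pgk1 and Ldhb spread apart.

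Oxygen sensing was read at the level of transcripts only. Hif1a encodes the alpha subunit, which is controlled mainly by protein stability. It read 2899.8, 2562.9 and 2518.2 in knockdown and 2281.6, 2672.9 and 2596.3 in wild type, or 0.14 ± 0.08 on the log2 scale (limma adjusted p 0.223). None of its 3 tested probe sets was called, and they ranged from -0.34 to 0.27. Egln3, a prolyl hydroxylase that marks the alpha subunit for destruction and is itself induced by low oxygen, read 4998.0, 4970.6 and 4871.4 in knockdown and 2818.2, 2861.1 and 2800.2 in wild type. The groups were tight and did not overlap, with a rise of 0.88 ± 0.05, or 1.84-fold (limma adjusted p 7.80e-07), and the second probe set rose by 0.75.

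Egln1, the main prolyl hydroxylase of most cells, was dim. The probe set with the higher mean log2 value read 281.7, 172.9 and 255.8 in knockdown and 97.3, 153.9 and 121.6 in wild type, 0.58 ± 0.23 and not called (limma adjusted p 0.0899), and it was called at 0.84 without knockdown B. Its other probe set read 286.6, 211.4 and 248.8 in knockdown and lay within background on 2 of the 3 wild-type arrays, so that it was at least 2.57-fold higher in knockdown (limma adjusted p 0.000603).

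Bnip3, a receptor on the mitochondrial outer membrane through which mitochondria are taken up by autophagy, had the largest rise among the members' brightest probe sets. It read 2674.0, 2793.9 and 2828.9 in knockdown and 1044.5, 1047.9 and 1009.1 in wild type. It rose by 1.41 ± 0.07 on the log2 scale, or 2.67-fold (limma adjusted p 1.94e-07). Its window, shown above, holds 4 separate matches to the core letters, the most in any window of a member. Among members with a window, 2 or more matches in a window were found for 6 of 12 called higher. The same held for 5 of 6 called lower and 7 of 10 not called. A relation between the number of matches and the change was not tested.

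Among the other hypoxia-inducible members, 3 rose, 1 fell and 2 did not pass, beside 18.3% of all genes called higher and 17.1% lower. Ero1a, listed as Ero1l, encodes the oxidase that drives disulfide bond formation in the endoplasmic reticulum. It read 4867.1, 5046.7 and 5124.6 in knockdown and 2987.4, 2960.3 and 3049.1 in wild type, a rise of 0.81 ± 0.05 (limma adjusted p 1.25e-06), and its 3 probe sets agreed, at 0.81 to 0.88. Under median centring the value of Ero1a was 0.54, still called. P4ha1, the catalytic subunit of the collagen prolyl hydroxylase, read 1304.4, 1408.6 and 1231.6 in knockdown and 767.9, 848.0 and 760.2 in wild type, a rise of 0.69 ± 0.09 (limma adjusted p 0.000191), with its second probe set at 0.48. Ankrd37, a small ankyrin repeat protein, read 343.0, 305.9 and 349.9 in knockdown and 84.6, 117.7 and 155.4 in wild type, a rise of 1.14 ± 0.19 (limma adjusted p 0.00127). The arrays of the groups did not overlap for these 3 genes, nor for 47.8% of all genes.

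Ndrg1, a stress-responsive member of the N-myc downstream regulated family that is often used as a marker of low oxygen, moved against them. It read 1706.6, 1667.2 and 1754.5 in knockdown and 6125.0, 6157.0 and 6143.9 in wild type. Its log2 fold change of -1.76 ± 0.05, 3.39-fold lower, was the largest in size among the members' brightest probe sets (limma adjusted p 1.05e-08), and all 5 of its probe sets were called lower, from -1.98 to -1.42.

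Car9, the surface carbonic anhydrase that appears in low oxygen, read 298.0, 312.2 and 214.4 in knockdown and 136.4, 202.4 and 138.6 in wild type. The deposited signals did not overlap, but the normalized ones did, and Car9 did not pass at 0.53 ± 0.19 (limma adjusted p 0.0602). It passed under 5 of 17 alternatives, among them the removal of knockdown C, at 0.68, and of wild type B, at 0.67. Ddit4, an inhibitor of the growth kinase mTOR that responds to low oxygen and other stresses, read 3212.6, 2032.4 and 2687.6 in knockdown, around the wild-type range of 2250.8 to 2471.8. It had 0.20 ± 0.13 (limma adjusted p 0.297), and without knockdown B it was called at 0.37.

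**Figure D3:**
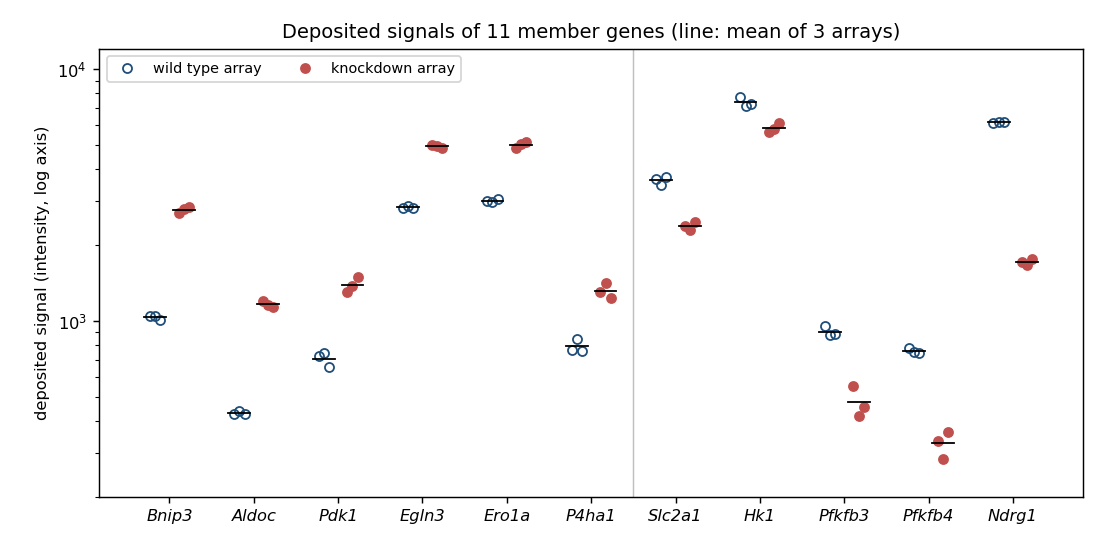
Deposited signals (intensity, log axis) of 11 member genes on each array, with filled points for knockdown, open points for wild type and a line at the mean of 3 arrays. Left of the divider the 6 genes are higher on every knockdown array, and right of it the 5 genes are lower on every knockdown array.

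Whether related members changed unequally was asked within arrays, as the log2 difference of 2 genes on an array, for 9 pairs. The tenth pair, of Bnip3 and Bnip3l, could not be read. With 3 arrays against 3, the smallest two-sided p of the exact permutation test is 0.1, which 5 pairs reached (0.18 after adjustment over the 9 pairs), so the test could not pass 0.05 for any pair. Relative to Aldoc, Aldoa was lower in knockdown by 1.13 on the log2 scale, with within-array differences of 3.71 to 3.84 in knockdown and 4.87 to 4.95 in wild type. The difference of Pfkl over Pfkm was 0.84 larger in knockdown, at 1.54 to 1.71 against 0.68 to 0.91. Relative to Slc2a3, Slc2a1 changed by -0.49, and by -0.81 with the values as deposited. Hk1 changed by -0.43 relative to Hk2, and Pfkfb3 by 0.28 relative to Pfkfb4, or 0.70 with the mean of their probe sets. The other 4 pairs overlapped between the groups: Pfkl and Pfkp, Ldha and Ldhb, Slc16a1 and Slc16a3, and Egln1 and Egln3. With the mean of probe sets the sign turned for Ldha relative to Ldhb, from -0.27 to 0.23, and for Egln1 relative to Egln3, from -0.30 to 0.33.

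**Figure D4:**
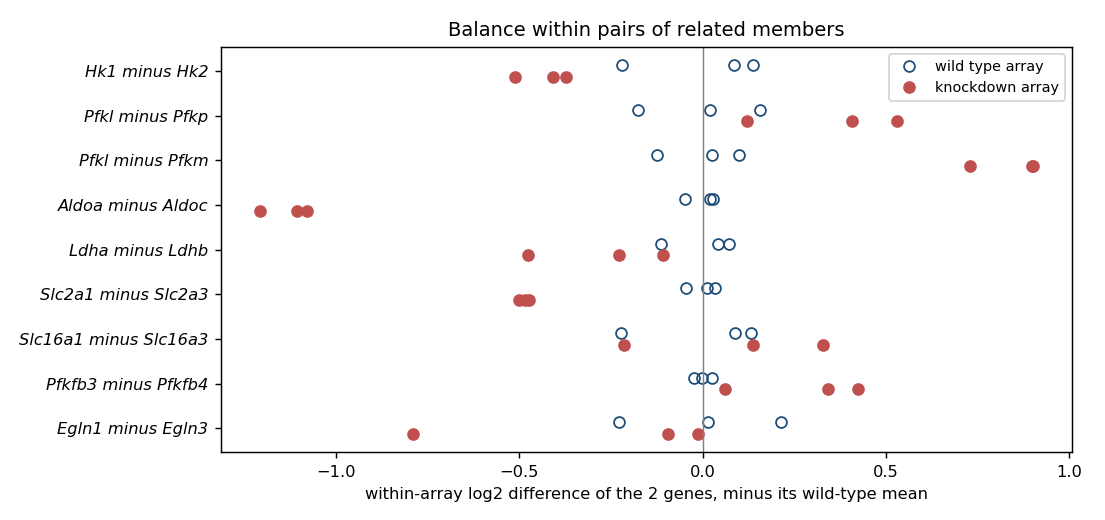
Within-array log2 difference of 2 related genes on each array, as the difference from its wild-type mean (x axis), for 9 pairs (y axis). Filled points are knockdown and open points wild-type arrays. The 3 knockdown arrays lie apart from the 3 wild-type arrays for Aldoa and Aldoc, Pfkl and Pfkm, Slc2a1 and Slc2a3, Hk1 and Hk2, and Pfkfb3 and Pfkfb4.

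Genes next to this pathway were called in both directions, and their counts stand beside the 18.3% of all genes called higher and the 17.1% called lower. Of 25 further tested genes of glycolysis and sugar metabolism, 5 were higher, 7 lower and 13 not called, with a median log2 fold change of -0.11. Hk3, a hexokinase of blood cells, changed by -1.21 ± 0.13, Pdk2, a sister kinase of Pdk1, by -0.88 ± 0.17 and the phosphoglucomutase Pgm2 by -0.83 ± 0.08, while the intracellular glucose transporter Slc2a8 rose by 0.78 ± 0.12. Of 12 genes of the pentose phosphate pathway and glycogen, 2 were higher, 6 lower and 4 not called (median -0.18). Gbe1, the glycogen branching enzyme, changed by -0.88 ± 0.16, transaldolase Taldo1 by -0.76 ± 0.04 and the isomerase Rpia by -0.55 ± 0.06, and the lactonase Pgls rose by 0.80 ± 0.08. In limma, no adjusted p of these 8 genes exceeded that of Pdk2, 0.00322.

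Of 11 further tested genes of oxygen sensing, 1 was higher, 2 were lower and 8 were not called, and 35.5% of all genes were called. Epas1, which encodes the alpha subunit HIF2A, changed by -0.86 ± 0.27 (limma adjusted p 0.0343) and Arnt, the common beta subunit, by -0.38 ± 0.11 (0.0196), while Cited2, a competitor for the coactivator of the factor, rose by 0.42 ± 0.04 (2.52e-05). Epas1 was dim, at 152.4, 70.8 and 141.7 in knockdown and 201.8, 229.1 and 193.2 in wild type, and lay within background on knockdown B. Of 25 other tested genes known to be hypoxia-inducible, 7 were higher, 9 lower and 9 not called, beside the same 18.3% and 17.1% of all genes. The 4 called changes of largest size were falls, with log2 fold changes of -2.46 ± 0.12 for Gadd45b, a stress-response gene, -1.81 ± 0.14 for the chemokine receptor Cxcr4, -1.62 ± 0.09 for annexin Anxa2 and -1.27 ± 0.15 for the nuclear receptor Rora. All 7 higher genes and the remaining lower ones are given here, a choice made after their values were seen. The collagen lysyl hydroxylase Plod2 rose from 417 ± 34.6 to 1031 ± 22.3 (SD, n = 3), by 1.19 ± 0.10, the mitochondrial adenylate kinase Ak4 by 1.05 ± 0.21, Zfp395 by 0.70 ± 0.20, the cytokine Mif by 0.69 ± 0.05, Fam162a by 0.56 ± 0.06, Vegfa, the vascular growth factor, by 0.46 ± 0.10 and the circadian repressor Bhlhe40 by 0.41 ± 0.09. In limma, no adjusted p of these 11 genes exceeded that of Zfp395, 0.0231. The remaining lower genes included Hmox1, at -1.21 ± 0.11, Narf, at -0.86 ± 0.07, and Tfrc, at -0.49 ± 0.04. Nampt, at -0.25 ± 0.08, and Tpd52, at -0.22 ± 0.07, were also lower (limma adjusted p 0.0484 and 0.0325).

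How the arrays are scaled sets the counts of small changes. With the values as deposited, 16 members were higher and 6 lower, beside 21.1% and 16.3% of all genes, and with arrays centred on their medians 8 and 6, beside 8.36% and 20.8%. The median log2 fold change of all genes was 0.12 and -0.08 in these settings, against 0.03 after quantile normalization. Called in the same direction under each of the 17 alternatives were 12 of the 19 called members: Bnip3, Aldoc, Ankrd37, Pdk1, Egln3, Ero1a, P4ha1 and Pfkl as higher, and Ndrg1, Pfkfb4, Pfkfb3 and Slc2a1 as lower.

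**Figure D5:**
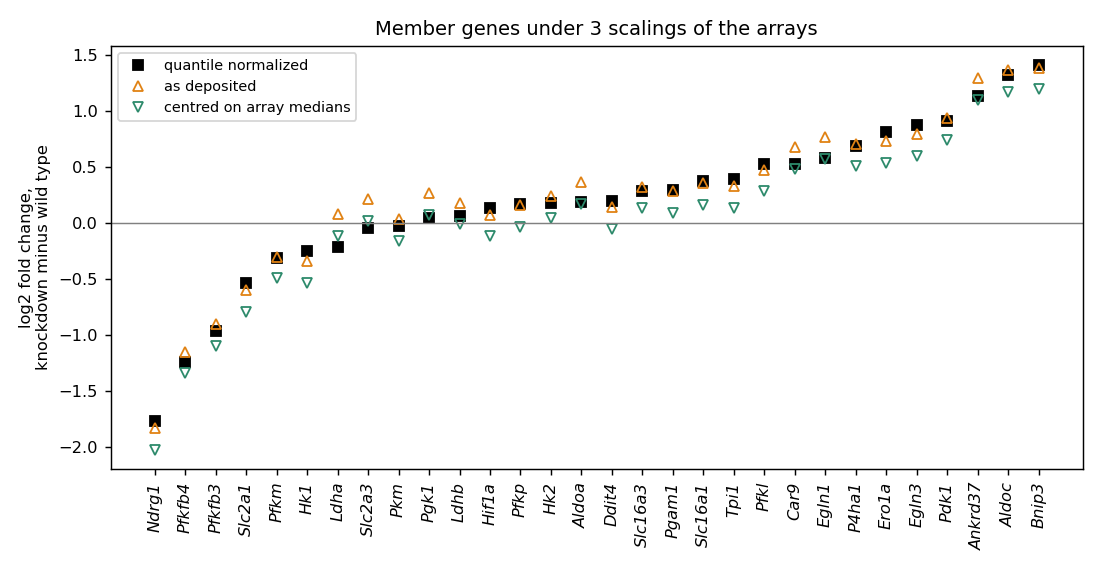
Log2 fold change of the 30 member genes, knockdown minus wild type (y axis), ordered by the value after quantile normalization (x axis), under 3 scalings of the arrays. Squares are quantile-normalized values, upward triangles values as deposited and downward triangles values centred on array medians. The ends of the order keep their sign, and for Ldha, Slc2a3, Pkm and others near 0 the sign depends on the scaling.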

How the data were processed

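The deposited table of the series gives 1 intensity per probe set and array on a linear scale, as the values show, and the authors had scaled the arrays to a common trimmed mean of 500 (2% trimmed at each end). For the software, and for a genome build, nothing is given in the sources used here. Probe sets were named from a platform annotation with 1 symbol for 34945, several for 932 and none for 9160. The 34 members, the gene lists and the tests were chosen with earlier results of these data known.

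Signals were tested as log2(signal + 32) after quantile normalization, without the 64 control probe sets and those whose mean lay below the 30th percentile. Groups were compared with limma (version 3.58.1, R 4.3.3), group as the only term, with an intensity trend, two-sided, with Benjamini-Hochberg adjustment over all probe sets tested. The fit was tested on simulated data, where part of the changes of known size, also of the largest size, were not called. A gene not called may therefore still differ. The limits for passing that test were loosened after its result was seen. A gene was read from its probe set with the highest mean. The offset understates changes of dim genes. Signals at or below the highest of 27 bacterial control probe sets were taken as background, and a fold against a group with 2 or 3 such arrays is a bound. The genes named are Gata1, all members and, of each further list, up to 4 called genes with the largest change. The other called genes of the last list, higher and lower, were added after their values were seen. Precision is limited by having 3 arrays a group. The 17 alternatives changed the scaling, floor, offset, filter, variance trend, array weights, replicate block or choice of probe set, or left out 1 array.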

Additional observations from a re-analysis of the deposited data

How the results depend on the processing

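Of the 19 called members, 12 kept direction and call under all 17 alternatives. The median log2 fold change of the members, 0.20, was 0.28 with the values as deposited, 0.083 under median centring of arrays and 0.27 when a gene's probe sets were averaged, and 0.18 to 0.25 when 1 array was left out. Of member probe sets, 17 were higher with arrays centred on their medians, against 29, and 4 member genes were lower without the intensity trend, against 7. The sign turned for Ldha, at 0.080 with the values as deposited. For Slc2a3 the sign turned with the mean of its probe sets (0.15), as deposited (0.22) and under median centring (0.024). Among members not called, it also turned for Pkm as deposited (0.039), for Hif1a (-0.12), Ddit4 (-0.049), Pfkp (-0.033) and Ldhb (-0.0085) under median centring, for Ldhb with the mean of its probe sets (-0.44) and without knockdown B (-0.028), and for Pkm without knockdown A (0.0018). The cause of the other shifts was not tested. Replicate letters were not used as a block, since deviations from the group means of arrays with the same letter correlated at -0.042, -0.017 and -0.0096. With the replicate block, 12 member genes were higher and 7 lower, and no member's call changed. Without 1 array, 11 to 14 member genes were higher and 6 or 7 lower. Gata1 was called lower under every alternative, at -5.79 to -5.07. Probe sets near background limit what can be read for Egln1, Car9, Ldhb and Ankrd37, among others. For Ankrd37, dim in wild type, the log2 fold change was 1.33 with an offset of 1 and 0.87 with an offset of 100, and it was called in both. Probe sets near the top of an array limit what can be read for Ldha, Slc2a3, Pgk1, Gapdh, Aldoa and Pkm.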
